A study of Mus musculus with 3 samples.

Results

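The SLC25 genes encode the mitochondrial carrier family, and they were examined here in chromatin-associated RNA of mouse macrophages. Members were all genes whose symbol is Slc25a followed by digits only and that have at least 1 annotated protein-coding transcript. The rule gave 47 of 55536 annotated genes, among 22028 protein-coding genes. It used names and annotation, not measured values. The pseudogene Slc25a5-ps, whose symbol makes 48 with the Slc25 prefix, was left out.

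Carriers of this family sit in the inner mitochondrial membrane and move metabolites, nucleotides, cofactors and ions between the cytosol and the matrix. They are built from repeated modules that each hold a pair of membrane helices, and most exchange one substrate for another. In macrophages they link the citric acid cycle to cytosolic lipid and amino acid chemistry, supply phosphate and ADP to ATP synthase, and bring iron to heme and iron-sulfur cluster synthesis.

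The samples were 3 libraries of 1 group. Bone-marrow-derived macrophages of C57BL/6J mice received 100 ng/ml Lipid A, the part of lipopolysaccharide that Toll-like receptor 4 binds, for 12 h. After a wash and 12 h without it, a second dose of 100 ng/ml followed for 50 minutes. Total RNA of the chromatin fraction, much of it nascent, was sequenced after removal of ribosomal RNA. The starting amount was 1 µg in replicate 1, 250 ng in replicate 2 and 500 ng in replicate 3. The labels name the same donor for all 3, and nothing says that the libraries came from separate animals or cultures, so SDs and p-values cover the spread of these samples alone, and that spread may be technical. Cells with no dose or a single dose were not analysed here, and every value below is a level and not a response to Lipid A.

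The tables of replicates 1, 2 and 3 sum to 13897176, 19597343 and 19348626 expected counts, of which members held 14391, 22356 and 18957. Library and starting amount cannot be told apart, since each library had its own amount. The labelled cell type was checked with markers: 8 of 8 macrophage genes were detected, with summed TPM between 1122 and 1380. None of 6 neutrophil, 4 B cell, 4 T cell or 4 stromal and endothelial genes was detected. The summed TPM of these lists lay between 0.20 and 0.43, 0.02 and 0.16, 0.23 and 0.36, and 1.24 and 4.07. In these alignment-based tables Elane, Cxcr2, Pax5, Cd3e and Cd3d were at 0 in all 3 libraries, but the read-based tables gave Cd3d 15.7 ± 3.18 TPM and Cxcr2 4.05 ± 0.431 TPM (SD, n = 3). Those tables also gave means of at least 1 TPM for Pecam1 (7.92 ± 4.12), Cd8a (1.57 ± 0.173), Col1a1 (1.08 ± 0.827) and Mpo (1.01 ± 0.257). The part of other cells in the members' levels was not tested. Detected means here a gene TPM of at least 1 in every library, where TPM is a transcript level corrected for length and scaled to a total of 1000000 per library.

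Of the 47 members, 32 were detected, or 68.1%, against 39.2% of all protein-coding genes. The median member had a mean TPM of 3.52, and the median protein-coding gene 0.367. Among detected genes only, the median was 7.60 TPM for members and 9.95 TPM for protein-coding genes. A threshold of 5 TPM left 20 members detected. With the read-based tables the median was 6.09 TPM for members and 1.52 TPM for protein-coding genes, and over protein-coding transcripts only it was 1.97 TPM for members. Scaling to protein-coding genes alone raised the members' median to 12.3 TPM. Members together held 0.174%, 0.232% and 0.216% of protein-coding TPM in replicates 1, 2 and 3. In bulk samples, fewer cells of a type and less RNA per cell cannot be told apart.

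**Figure D1:**
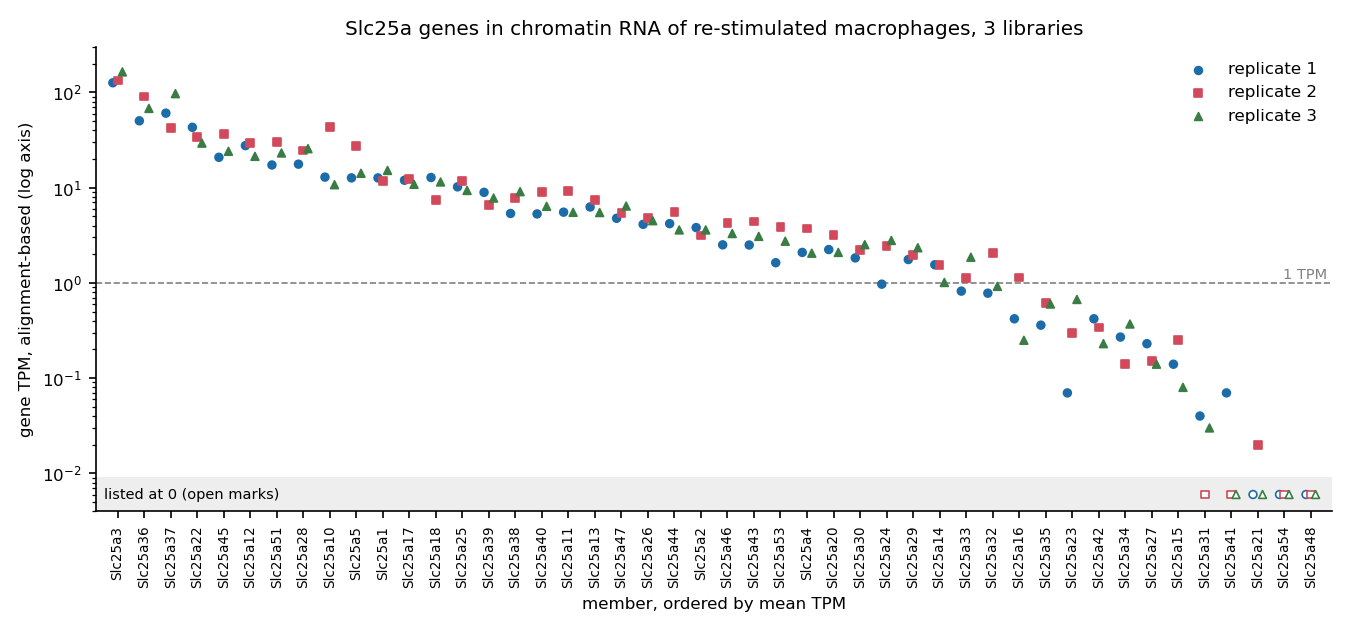
Alignment-based TPM of members (log axis), ordered by mean; each point is 1 library, and values listed at 0 are open marks in the grey band. Slc25a3 lies highest at 126 to 164 TPM, the dashed line marks 1 TPM, and Slc25a10 shows replicate 2 at 43.6 TPM above the other libraries.

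Levels covered a wide range, with Slc25a3 highest by alignment-based gene TPM. The highest member, Slc25a3, had 141 ± 20.2 TPM (SD, n = 3), and the next, Slc25a36, had 69.7 ± 20.2 TPM. The 3 libraries of Slc25a3 all lay above the 3 of Slc25a36. Over protein-coding transcripts only, Slc25a36 had the higher mean, 33.1 TPM against 30.4 TPM, but Slc25a3 was higher in replicate 3 (44.1 against 32.7 TPM). Over transcripts with a complete coding sequence, Slc25a3 had the higher mean, 30.4 TPM against 18.6 TPM. There Slc25a36 was the higher in replicate 1 (14.7 against 13.3 TPM). In the read-based tables Slc25a37 reached 119 TPM in replicate 3, above the 99.4 TPM of Slc25a3 in replicate 2. Farther down the order most neighbours overlapped: of 31 neighbouring pairs of detected members, 6 kept their order in every library and 2 did not overlap, Slc25a3 with Slc25a36 and Slc25a29 with Slc25a14.

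The carriers of ATP synthesis were led by the phosphate carrier. Slc25a3, which brings phosphate into the matrix for ATP synthase, had 126, 133 and 164 TPM in replicates 1, 2 and 3. Slc25a5, the widely expressed ADP/ATP exchanger, had 12.7, 27.3 and 14.2 TPM, with replicate 2 highest. Slc25a4, the ADP/ATP exchanger of heart and muscle, had 2.09, 3.72 and 2.05 TPM. Slc25a5 therefore lay above Slc25a4 in all 3 libraries with no overlap, and Slc25a31, the form known from testis, had 0.04, 0 and 0.03 TPM. These 4 genes held 27.5% of the summed TPM of the family. The exons of Slc25a5 are copied in many pseudogenes: 49.4% of its 31-base stretches also occur in transcripts of 13 other genes, and the 8 of these that share at least 5% of them were all listed at a mean of 0 TPM.

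Slc25a3 (ENSMUSG00000061904.12, chr10:91116574-91124059, minus strand, mm10) has a pair of mutually exclusive versions of the third exon, known as the heart and muscle form and the form of other tissues. The longer exon, of the heart and muscle form, lies at chr10:91122207-91122331. The shorter exon lies at chr10:91121922-91122043. Both are coding, and they are printed because RNA of both kinds was counted. The 5′ to 3′ sequences on the minus strand, from the GENCODE M21 transcripts, are:
Slc25a3 shorter version of the third exon: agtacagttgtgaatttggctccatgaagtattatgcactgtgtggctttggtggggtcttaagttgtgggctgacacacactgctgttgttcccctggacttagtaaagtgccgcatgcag
Slc25a3 longer version of the third exon: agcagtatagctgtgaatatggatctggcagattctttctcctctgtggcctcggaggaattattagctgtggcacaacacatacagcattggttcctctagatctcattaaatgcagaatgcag
A global alignment of the exons had 88 identical bases in 132 columns, or 66.7%, and the lengths differ by a whole codon.

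Transcripts with the shorter exon had 13.3, 26.4 and 28.9 summed TPM in replicates 1, 2 and 3. The coding transcript with the longer exon had 0, 7.27 and 15.3 TPM. A nonsense-mediated decay model holds the longer exon with an extension (chr10:91122108-91122331) and had 10.5, 0 and 1.35 TPM. In these alignment-based values the shorter form lay above each of these in every library, and the others traded places: replicate 1 gave its counts to the extended model (175 against 0 expected counts) and replicate 2 gave them to the regular exon (142 against 0). In the read-based tables replicate 1 had 8.81 TPM for the shorter exon, 2.21e-07 TPM for the regular longer exon and 13.7 TPM for the extended one, so there the extended model lay above the shorter form.

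Most Slc25a3 expected counts were assigned elsewhere, to a model annotated as retained intron. This model keeps intron 2, runs across both versions of the third exon and had 45.6, 54.5 and 57.2 TPM. It held 73.6%, 75.9% and 71.1% of the gene's expected counts. Transcripts of protein-coding type held 21.5% of the gene's TPM. A small nucleolar RNA gene, Gm24119, lies in an intron of Slc25a3 and had 260, 115 and 111 TPM, with no exon bases shared. It was highest in replicate 1, where Slc25a3 was lowest, and its part in the Slc25a3 levels was not tested.

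The calcium-regulated ATP-Mg/phosphate carriers, which adjust the adenine nucleotide pool of the matrix, were mostly low. Slc25a25 had 10.2, 11.7 and 9.35 TPM and was the 1 of 5 detected in every library. Slc25a24 had 0.97, 2.42 and 2.79 TPM, and so missed the threshold in replicate 1. Slc25a23 had 0.07, 0.30 and 0.67 TPM, and Slc25a41 and Slc25a54 stayed under 0.1 TPM in all libraries. The exons of Slc25a25 share 379 bases with those of Naif1 on the opposite strand, which had 1.53 ± 0.216 TPM.

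The pyrimidine nucleotide carriers were far apart. Slc25a36 had 50.4, 90.7 and 67.9 TPM, and Slc25a33 had 0.82, 1.12 and 1.86 TPM. The difference in log2(TPM + 1) was 4.95 ± 0.436 (SD, n = 3), or 30.9-fold, the largest among the 10 pairs compared. Slc25a36 TPM was spread over many models: protein-coding transcripts held 47.5%, retained-intron transcripts 35.6% and processed transcripts 16.8%. The antisense gene Gm16185 overlaps Slc25a36 without shared exon bases and had 8.89, 22.9 and 20.4 TPM, also lowest in replicate 1.

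The mitoferrins, which carry iron into the matrix, held 15.2% of the family's TPM. Slc25a37, mitoferrin 1, which is known for its high expression in erythroid cells, had 60.6, 42.3 and 97.1 TPM. Slc25a28, mitoferrin 2, had 17.7, 24.5 and 25.7 TPM. Slc25a37 lay above Slc25a28 in every library, by 1.45 ± 0.606 (SD, n = 3) on the log2(TPM + 1) scale, or 2.74-fold. Of 8 erythroid markers, 1 was detected: Alas2, the first enzyme of erythroid heme synthesis, at 4.49, 5.57 and 6.58 TPM, with 92.5% of its TPM in retained-intron transcripts. The read-based tables gave Alas2 13.7 ± 2.99 TPM (SD, n = 3). Klf1, Gata1, Slc4a1, Hba-a1 and Hbb-bs were at 0 in all 3 alignment-based tables, and the summed TPM of the list lay between 4.49 and 6.66.

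Both mitoferrin genes have 4 coding exons in the reference transcript, with exon 2 of 229 bases and exon 3 of 57 bases in each. Exon 2 was identical at 157 of 229 positions (68.6%) and exon 3 at 43 of 57 (75.4%). Each gene has only 1 annotated retained-intron model, so the annotation sets which introns can be counted as kept. The model of Slc25a28 keeps introns 2 and 3. In both genes the model keeps intron 2, the intron between these exons. It lies at chr14:69247638-69249393 (1756 bases, minus strand) in Slc25a37 and at chr19:43665829-43666914 (1086 bases, minus strand) in Slc25a28. Exon 3 and the borders of the kept intron are printed for both genes, from the GENCODE M21 transcripts, 5′ to 3′, with exon bases of the borders in capitals:
Slc25a37 exon 3, chr14:69247581-69247637: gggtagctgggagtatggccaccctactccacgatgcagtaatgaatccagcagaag
Slc25a28 exon 3, chr19:43665772-43665828: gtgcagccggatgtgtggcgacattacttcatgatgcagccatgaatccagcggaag
Slc25a37 exon 2 to intron 2: ATCTAGCTAATGgtattttgaaagcgtttg
Slc25a28 exon 2 to intron 2: ATATTGCCAATGgtattgagccttcctgtg
Slc25a37 intron 2 to exon 3: ctggagtttgttttgcagGGGTAGCTGGGA
Slc25a28 intron 2 to exon 3: ttgttttctcctttgcagGTGCAGCCGGAT

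The model of Slc25a37 that keeps intron 2 had 45.4, 38.5 and 40.1 TPM. The full-length transcript with intron 2 spliced had 0.13, 0.31 and 1.28 TPM. The former held 98.8%, 98.2% and 91.0% of the gene's expected counts. In each library nearly all alignment-based counts of the gene were thus assigned to the model that keeps the intron. Shares of TPM were lower: that model held 75.0%, 91.1% and 41.3% of alignment-based TPM. In the read-based tables it held 44.6%, 41.9% and 23.8%, and most TPM there lay in transcripts that do not cover intron 2. For Slc25a28, the model that keeps introns 2 and 3 had 9.47, 8.20 and 8.81 TPM and the spliced coding transcript 0.20, 0.57 and 1.19 TPM. The former held 82.2%, 68.4% and 68.6% of counts, and a processed transcript at the 3′ end held 17.1%, 29.9% and 28.0%.

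The spread of Slc25a37 across libraries depended on 1 short model. It spans 342 bases at the 5′ end of the gene, is annotated as protein-coding with an incomplete coding sequence, and had 15.0, 2.09 and 49.7 TPM from 35.7, 3.93 and 89.9 expected counts. The coefficient of variation (CV) of Slc25a37 was 41.9% in TPM. In CPM, the counts scaled to the library's total with no correction for length, the values were 258, 205 and 215 with a CV of 12.5%. The gene Gm20236 lies on the same strand within Slc25a37, with no exon bases shared, and had 60.4, 26.2 and 59.0 TPM. Gm31748 shares 381 exon bases on the opposite strand and had 10.6, 6.17 and 14.2 TPM, with the same order of libraries as Slc25a37, and its part in the Slc25a37 level was not tested.

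**Figure D2:**
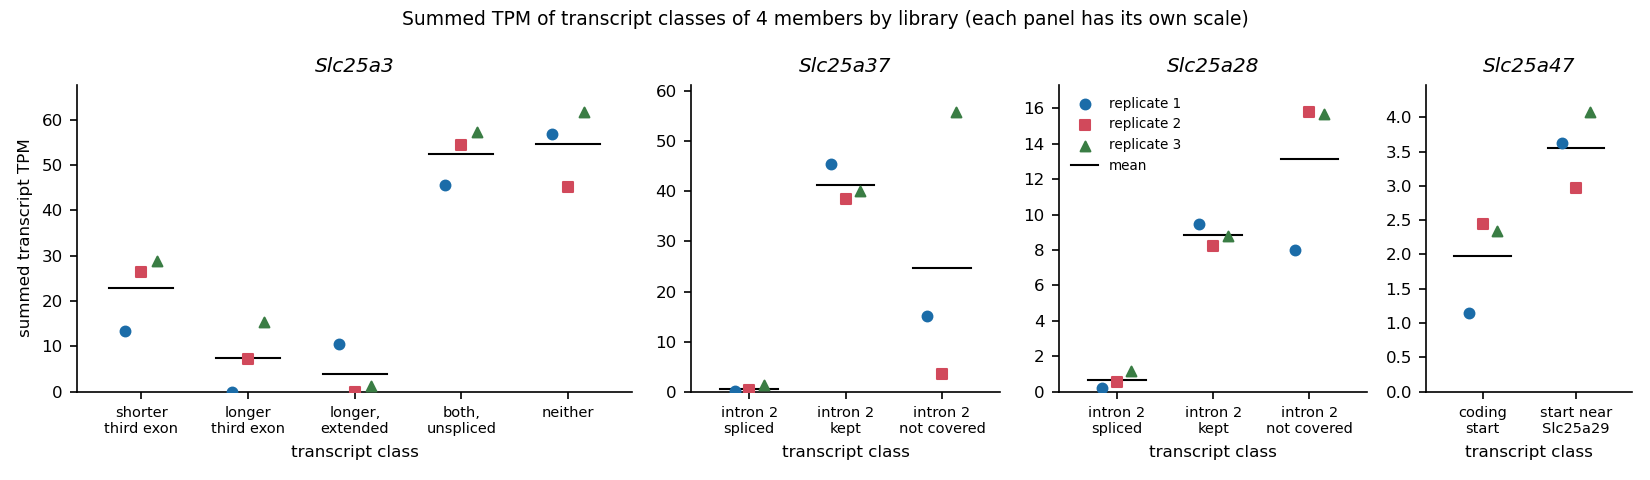
Summed alignment-based TPM of transcript classes of Slc25a3, Slc25a37, Slc25a28 and Slc25a47; each point is 1 library, black lines are means over 3 libraries, and the scale differs between panels. Spliced mitoferrin transcripts lie near 0 beside those that keep intron 2 (41.3 TPM for Slc25a37 and 8.83 TPM for Slc25a28 on average).

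All 4 aspartate and glutamate carriers were detected. Slc25a22, a glutamate carrier, had 43.0, 33.7 and 29.4 TPM. Slc25a12, the aspartate/glutamate exchanger called aralar, had 27.7, 29.2 and 21.3 TPM. Slc25a13, the exchanger called citrin, had 6.27, 7.41 and 5.48 TPM, and lay below Slc25a12 in every library by 1.87 ± 0.0994 (SD, n = 3) on the log2(TPM + 1) scale. That pair had the smallest SD among the 10 pairs.

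The order of the aspartate/glutamate exchangers turned with the transcripts counted. Coding transcripts held 7.59% of Slc25a12 TPM and 51.7% of Slc25a13 TPM. Over protein-coding transcripts only, Slc25a13 lay above Slc25a12 by 0.56 on the same scale. Slc25a12 TPM lay in processed transcripts (42.7%), a nonsense-mediated decay model (31.2%) and a retained-intron model (18.6%). The full coding transcript of Slc25a12 had 2.34, 2.43 and 1.16 TPM.

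Slc25a18, the other glutamate carrier, had 12.8, 7.47 and 11.5 TPM, all in 1 protein-coding transcript, the only transcript annotated for it. It shares 32 exon bases with Atp6v1e1 on the opposite strand, which had 96.2, 60.8 and 108 TPM. Both genes were lowest in replicate 2, and the part of Atp6v1e1 reads in the Slc25a18 value was not tested. Slc25a22 lay above Slc25a18 by 1.66 ± 0.377 (SD, n = 3) on the log2(TPM + 1) scale. Over protein-coding transcripts only it lay below Slc25a18 by 0.18, and 68.2% of Slc25a22 TPM, in retained-intron models, is not counted there. Slc25a22 has 25 annotated transcripts, 7 of them of retained-intron type, so that comparison sets unlike annotations side by side. With the read-based tables the difference was 0.18, and replicate 3 had 20.5 TPM for Slc25a22 and 29.1 TPM for Slc25a18.

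Among the di- and tricarboxylate carriers, the dicarboxylate carrier varied most. Slc25a1, which exports citrate for fatty acid synthesis, had 12.7, 11.7 and 15.2 TPM. Slc25a10, which exchanges malate or succinate for phosphate, had 12.9, 43.6 and 10.7 TPM. Slc25a11, the oxoglutarate/malate carrier, had 5.53, 9.24 and 5.51 TPM. Slc25a10 had the largest CV of any detected member, 81.9%, and replicate 2 lay 4.06-fold above replicate 3. All 6 of its transcripts were highest in replicate 2, and the read-based values were 16.7, 55.1 and 15.7 TPM. The deposited credible interval of replicate 2, 37.8 to 45.1 TPM, did not overlap those of replicate 1 (10.5 to 14.7) and replicate 3 (9.02 to 12.5). In CPM Slc25a10 had 13.96, 40.8 and 11.6.

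Slc25a11 shares 189 exon bases with Rnf167 on the opposite strand, at 23.98, 22.3 and 21.1 TPM, and the part of Rnf167 reads in the Slc25a11 value was not tested. Slc25a21, the carrier of longer dicarboxylates, was at 0, 0.02 and 0 TPM. Enzymes beside these carriers were listed for context, and 8 of 10 were detected. Acod1, which makes itaconate in activated macrophages, was highest at 1847, 1019 and 1442 TPM, and Got2, the mitochondrial aspartate aminotransferase, was lowest at 0.80, 1.29 and 0.54 TPM.

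Carriers of other amino acids were all below 10 TPM. Slc25a38, a glycine carrier used in heme synthesis, had 5.36, 7.85 and 9.08 TPM. Slc25a44, which imports branched-chain amino acids, had 4.19, 5.60 and 3.60 TPM. Slc25a29, a carrier of basic amino acids, had 1.76, 1.98 and 2.34 TPM. Of the ornithine carriers, Slc25a2 had 3.81, 3.14 and 3.60 TPM and Slc25a15 had 0.14, 0.25 and 0.08 TPM. Slc25a2 lay above Slc25a15 in every library, by 1.97 ± 0.206 (SD, n = 3) on the log2(TPM + 1) scale.

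Of 9 cofactor and glutathione carriers, 6 were detected. Slc25a51, which imports NAD+, was the highest of them by alignment-based TPM with 17.3, 30.4 and 23.1, of which 56.3% lay in a processed transcript. Slc25a17, a peroxisomal carrier of coenzyme A and related cofactors, had 12.0, 12.3 and 10.8 TPM. In the read-based tables their order turned in every library. There Slc25a17 had 40.4, 42.7 and 50.1 TPM and Slc25a51 had 18.8, 33.0 and 27.2 TPM.

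The glutathione carriers were close to each other. Slc25a39 had 8.93, 6.62 and 7.78 TPM and Slc25a40 had 5.30, 9.09 and 6.37 TPM. Slc25a39 was higher in 2 of 3 libraries, and the difference of 0.17 ± 0.536 (SD, n = 3) on the log2(TPM + 1) scale was smaller than its spread. Slc25a26, which imports S-adenosylmethionine, had 4.12, 4.84 and 4.50 TPM. The coenzyme A carriers were below the threshold, Slc25a42 at 0.42, 0.34 and 0.23 TPM and Slc25a16 at 0.42, 1.14 and 0.25 TPM. Their difference of -0.23 ± 0.383 (SD, n = 3) was also smaller than its spread.

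Of the members whose substrate is not stated here, Slc25a45 was highest. It had 20.8, 36.5 and 24.1 TPM, all of it in protein-coding transcripts. Slc25a47 had 4.77, 5.41 and 6.41 TPM, Slc25a43 had 2.50, 4.42 and 3.08 TPM, and Slc25a53 had 1.63, 3.89 and 2.74 TPM. The remaining detected members, Slc25a46 of the outer membrane, the acylcarnitine carrier Slc25a20 and the uncoupling-protein-like Slc25a14 and Slc25a30, had mean TPM between 1.37 and 3.35.

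Slc25a47 and Slc25a29 face away from each other on chromosome 12. Slc25a29 starts on the minus strand at 108835883 and Slc25a47 starts on the plus strand at 108836046, with 162 bases between their 5′ ends. Part of the Slc25a47 TPM belongs to models that start near that gap. Processed transcripts whose first base lies 163 to 1181 bases from the 5′ end of Slc25a29 had 3.63, 2.97 and 4.07 summed TPM. The coding transcripts, which start 15246 and 15256 bases away, had 1.14, 2.44 and 2.34 summed TPM. The transcripts near Slc25a29 were the higher group in every library, with 64.3% of the gene's TPM. The bases between the genes are printed because annotated transcripts of both genes begin at their edges. They are chr12:108835884-108836045, plus strand, from the RefSeq promoter window of Slc25a29 (GRCm38.p6), with no capitals:
between Slc25a29 and Slc25a47: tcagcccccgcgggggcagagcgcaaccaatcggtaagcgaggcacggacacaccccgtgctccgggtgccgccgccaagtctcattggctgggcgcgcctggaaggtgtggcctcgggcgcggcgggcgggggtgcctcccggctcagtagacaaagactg
The stretch has a G+C content of 71.6% and holds 18 CG dinucleotides. RefSeq windows of 300 bases were found for 36 of 47 members. The median G+C content of their 46 windows was 59.3%, against 52.7% for all 32851 windows.

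The 15 members not detected were Slc25a24, Slc25a33, Slc25a32, Slc25a16, Slc25a35, Slc25a23, Slc25a42, Slc25a34, Slc25a27, Slc25a15, Slc25a31, Slc25a41, Slc25a21, Slc25a54 and Slc25a48. The first 3 had a mean of at least 1 TPM and fell below it in replicate 1. Slc25a32, linked to folate and FAD transport, had 0.78, 2.05 and 0.92 TPM and was below 1 TPM in replicate 3 as well. Slc25a54 and Slc25a48 had no counts in any library. A count of 0 allows up to 3 counts, which is 0.155, 0.124 and 0.134 TPM for Slc25a54 and 0.0691, 0.0533 and 0.0578 TPM for Slc25a48, by counting error only. With the read-based tables, the number of detected members was 37. Those added were Slc25a42 with 3.09, 4.91 and 5.27 TPM, Slc25a24 with 2.23, 3.77 and 3.66 TPM, Slc25a32 with 1.47, 3.01 and 2.47 TPM, Slc25a33 with 1.54, 1.67 and 2.37 TPM and Slc25a16 with 1.06, 2.73 and 1.91 TPM. Slc25a48 stayed under 1 TPM there, at 0.339, 0.490 and 0.488 TPM.

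Across all 10 pairs, 8 had the same order in 3 of 3 libraries. The smallest p that the two-sided exact sign-flip permutation test allows with 3 libraries is 0.25, and those 8 pairs had it, with an adjusted p of 0.3125 over the 10 pairs (n = 3). The test therefore could not pass 0.05 for any pair. The remaining differences were 2.35 ± 0.221 for Slc25a5 over Slc25a4, 1.95 ± 0.531 for Slc25a25 over Slc25a24 and 1.15 ± 0.259 for Slc25a24 over Slc25a23 (SD, n = 3, log2(TPM + 1) scale). Sizes moved with the values compared. Over protein-coding transcripts only, the difference was 1.30 for Slc25a5 over Slc25a4, 1.15 for Slc25a25 over Slc25a24, 3.90 for Slc25a36 over Slc25a33 and 3.15 for Slc25a37 over Slc25a28, with the direction kept. For Slc25a37 that value rested on the short model with an incomplete coding sequence. Over transcripts with a complete coding sequence, Slc25a37 had 0.13, 0.31 and 1.28 TPM. Slc25a28 had 0.20, 0.57 and 1.19 TPM there, so Slc25a37 was the higher in replicate 3 only. The order of Slc25a39 and Slc25a40 turned in CPM, and that of Slc25a42 and Slc25a16 with the read-based tables.

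**Figure D3:**
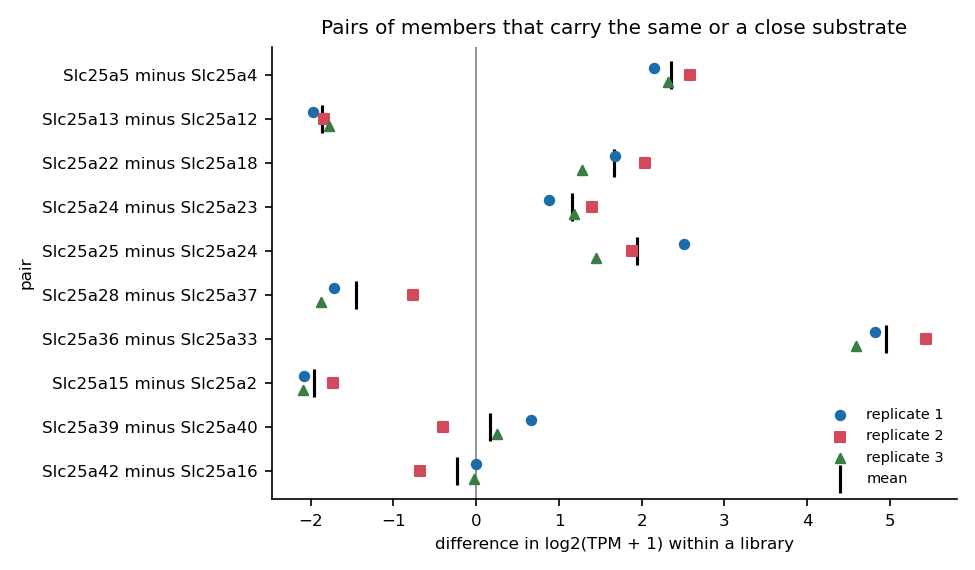
Difference in log2(TPM + 1) between members of 10 pairs, by library; points are libraries, black bars are means, and positive values mean that the first gene is higher. Slc25a36 minus Slc25a33 is largest at 4.95, and Slc25a39 minus Slc25a40 has points on both sides of 0.

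The share of TPM in protein-coding transcripts had a lower median over detected members than over all detected protein-coding genes. It was 41.3% for the 32 members and 55.4% for 8638 protein-coding genes. Under 50% of TPM lay in such transcripts for 21 of 32 members (65.6%), against 42.9% of genes. Retained-intron transcripts held over 50% for 12 of 32 members (37.5%), against 26.2% of genes, although a retained-intron transcript is annotated for 20 of 32 members (62.5%) and 66.0% of genes. In expected counts, which weight long transcripts more, the median share was 64.9% for the same members and 78.0% for the genes. These shares are descriptions with no test. Intron reads can be counted here only where an exon of an annotated transcript, of any type, covers those bases. A gene with no retained-intron transcript shows no retained-intron share.

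The lowest protein-coding shares belonged to Slc25a28 with 2.89%, Slc25a12 with 7.59% and Slc25a53 with 8.33%. At the other end, Slc25a45, Slc25a18, Slc25a44 and Slc25a2 had all of their TPM in protein-coding transcripts, and none of them has an annotated retained-intron transcript. Slc25a18 and Slc25a2 have only 1 annotated transcript each. The introns kept in retained-intron models differed in size. A model of Slc25a1 that keeps intron 2 of 78 bases had 5.04 TPM on average. A model of Slc25a5 that keeps intron 2 of 406 bases had 8.22 TPM. The models of Slc25a22 that keep intron 6 of 107 bases sum to 16.5 TPM. Whether reads assigned to such models came from RNA not yet spliced was not tested.

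**Figure D4:**
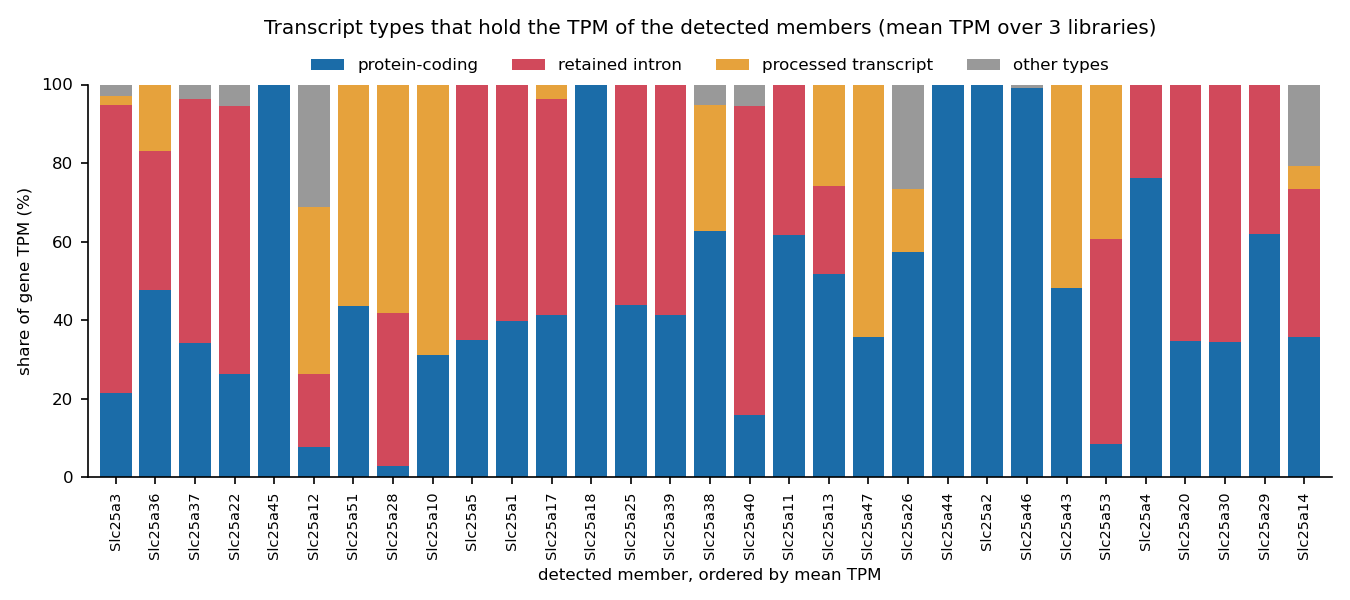
Share of mean TPM (%) by annotated transcript type for detected members, ordered by mean TPM; blue is protein-coding, red retained intron, orange processed transcript and grey other types. Slc25a28 has 2.89% in protein-coding transcripts, and 4 members have all of it there.

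The alignment-based and read-based tables gave different levels for some members. The read-based mean was at least 2-fold above the alignment-based mean for 7 of 32 detected members (21.9%), against 17.3% of detected protein-coding genes, so members were close to the background. None was 2-fold below, against 0.162% of genes. The median fold was 1.22 for members and 1.30 for genes. That shift depended on scaling: with both tables scaled to protein-coding genes, the median log2 ratio was -0.17 for the same members and -0.08 for the genes. The largest ratios were those of Slc25a17 (3.79), Slc25a53 (3.01) and Slc25a26 (2.55). For Slc25a17 a model of 211 bases had 16.0 TPM in the read-based tables and 0 in the alignment-based ones. The smallest ratios were those of Slc25a28 (0.731), Slc25a22 (0.768) and Slc25a3 (0.795).

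**Figure D5:**
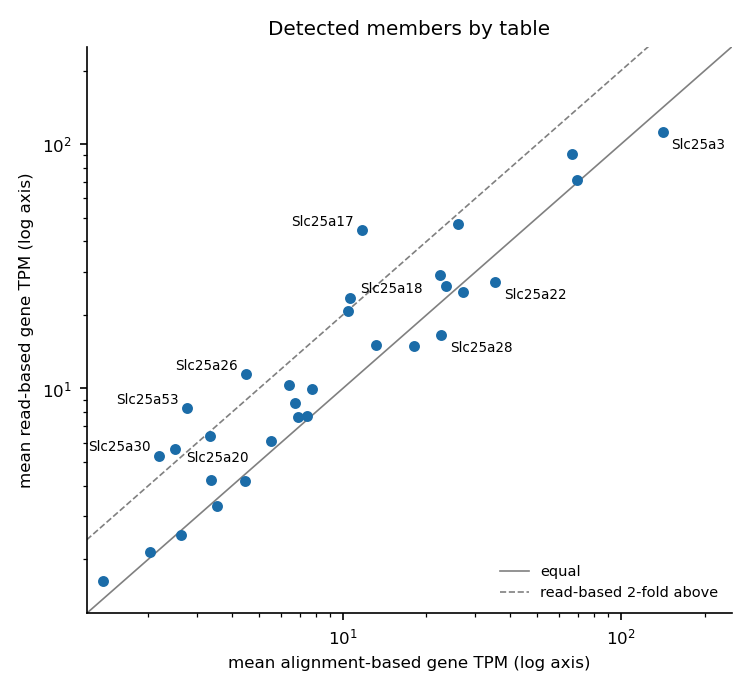
Mean read-based TPM against mean alignment-based TPM of detected members (both log axes); the solid line marks equal values and the dashed line read-based values 2-fold above. Members above the dashed line and the 3 with the smallest ratios are named.

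Across libraries the members varied about as much as other genes. The median CV was 23.3% for detected members and 22.7% for detected protein-coding genes. Without replicate 2 these medians were 13.8% and 15.6%. The highest library lay at least 2-fold above the lowest for 5 of 32 members (15.6%), against 21.4% of genes. Slc25a10, Slc25a37, Slc25a5 and Slc25a53 were among them. Replicate 2 was the highest library for 19 of 32 members (59.4%), against 55.7% of genes. The most even members were Slc25a17 with a CV of 6.51%, Slc25a26 with 8.03% and Slc25a2 with 9.74%.

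Other mitochondrial transport genes were measured for context, and 29 of 36 were detected. Among carrier-family proteins under other names, Mtch2, an outer-membrane insertase, was highest at 23.2, 30.8 and 21.8 TPM, and Ucp3 was lowest at 0, 0 and 0.03 TPM. Of the machinery that imports carriers, 8 of 10 genes were detected, from Tomm70a, their receptor on the outer membrane, at 11.9 ± 1.31 TPM down to Timm8a1 at 0.483 ± 0.136 TPM. Vdac2, an outer-membrane channel, had 42.3, 63.3 and 45.6 TPM, and Vdac3 was the lowest of the 3 at 6.96 ± 0.736 TPM. Mpc1, a subunit of the pyruvate carrier, which belongs to another family, had 26.4 ± 3.06 TPM and its partner Mpc2 had 2.77 ± 1.38 TPM (SD, n = 3 for each). The sideroflexins ran from Sfxn2 at 1.90 ± 0.741 TPM to Sfxn5 at 15.1 ± 3.52 TPM. In the calcium uniporter group Mcub was lowest at 1.07 ± 0.560 TPM. Of the ABC transporters Abcb8 had 9.42 ± 2.33 TPM and Abcb10 had 0.740 ± 0.108 TPM (SD, n = 3 for each). The median of these 36 genes was 5.19 TPM, beside 3.52 TPM for the 47 members.

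The identity of members is limited by sequence that other genes share. Over 10% of 31-base stretches were shared with other genes for 3 members, Slc25a5 (49.4%), Slc25a35 (27.5%) and Slc25a33 (13.5%), and under 1% for 23. Exon bases overlapped those of a gene with a mean of at least 1 TPM for 6 members, Slc25a11, Slc25a18, Slc25a25, Slc25a33 and Slc25a37 among them. The sources used here do not say whether the authors' counting used strand, and the values of these 6 are therefore uncertain.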

How the data were processed

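Members and gene lists were chosen with earlier results of these data known. Per the labels, chromatin RNA of 3 libraries was sequenced, and per the file headers the deposited tables use mouse build mm10 and GENCODE M21. The sources used here do not name the programs. The authors deposited alignment-based gene and transcript tables with TPM and expected counts (estimated, not whole), and read-based transcript tables with TPM and estimated counts. The deposited credible interval bounds, a signal in TPM units, have no stated level. Gene TPM can lie outside these bounds. That of Slc25a3 lay above the upper bound in every library, at 126, 133 and 164 against 124, 131 and 160 TPM. That of Slc25a53 lay below the lower bound, at 1.63, 3.89 and 2.74 against 2.01, 4.15 and 3.37 TPM.

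Members were found by symbol, and the read-based transcript TPM was summed per gene. Values were given as mean ± SD over 3 libraries. Chi-square per degree of freedom between libraries was 46.5 to 116, so none was counted as a repeat deposit. Pairs were compared on log2(TPM + 1) by an exact sign-flip permutation test with Benjamini-Hochberg adjustment. No count model was needed, since there is 1 group. Transcript types, exons and overlaps came from GENCODE M21, promoter windows from RefSeq. Members given with the value of every library were named by rule: the 10 highest members, pairs, detected members of roles with at least 4 members, and the 3 most extreme in CV, coding share and table ratio. Work used Python 3.11.15, pandas 2.3.3 and numpy 2.4.6. The functions were tested on simulated data. A few listed genes are not reported here and are left out of the plots.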

Additional observations from a re-analysis of the deposited data

How the results depend on the processing

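Of the alternatives, a threshold of 5 TPM left 20 members and 14 related genes detected, where 1 TPM gave 32 and 29. The median over members of 3.52 TPM was 6.92 over those with a mean of at least 1 TPM, 6.09 with the read-based tables, 1.97 over protein-coding transcripts only, 4.21 with the posterior mean, 4.78 in CPM and 12.3 after rescaling to protein-coding genes. The members' share of protein-coding TPM, 0.207%, was 0.159% over protein-coding transcripts and 0.170% in CPM. The median share in protein-coding transcripts, 41.3%, was 36.2% with the read-based tables and their own detected genes, 33.3% with read-based transcript TPM over the same genes, 69.1% in expected counts over members with at least 1 CPM and 36.4% over transcripts with a complete coding sequence, an alternative chosen after seeing the data.

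The median log2 ratio of read-based over alignment-based level, 0.29, turned to -0.0917 over protein-coding transcripts, -0.0413 in CPM and -0.12 after rescaling. The cause was not tested. Pairs that turned were Slc25a42 minus Slc25a16 (0.92 with the read-based tables), Slc25a13 minus Slc25a12 (0.56) and Slc25a22 minus Slc25a18 (-0.18) over protein-coding transcripts, and Slc25a39 minus Slc25a40 (-1.05 in CPM, -0.0762 without replicate 1). Over transcripts with a complete coding sequence, looked at after seeing the data, the mean of Slc25a28 (0.653 TPM) lay above that of Slc25a37 (0.573 TPM).

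Leaving out 1 replicate at a time gave ranges of 32 to 34 members detected, 3.48 to 3.78 TPM for the median, 39.2% to 45.4% for the protein-coding share, and 13.8% to 23.8% for the median CV, lowest without replicate 2. It gave -0.0762 to 0.45 for Slc25a39 minus Slc25a40 and kept the direction of the other 9 pairs. No paired analysis was possible because there is 1 group. Without the members that share exon bases with a gene with a mean of at least 1 TPM, 27 were detected, also chosen after seeing the data. Depth limits the lowest members most: Slc25a14 was detected from 17 expected counts in replicate 1.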

Other observations

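Close neighbours on a chromosome were found for 4 pairs of members within 100000 bases. Slc25a54 and Slc25a24 lie 6461 bases apart on chromosome 3 and had a mean of 0 and 2.06 TPM. Slc25a41 and Slc25a23 lie 2056 bases apart on chromosome 17, with 0.0233 and 0.347 TPM. Slc25a43 and Slc25a5 lie 18448 bases apart on chromosome X, with 3.33 and 18.1 TPM. The fourth pair, Slc25a29 and Slc25a47, had 2.03 and 5.53 TPM.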
